A study of Xenopus laevis with 2 samples.

Results

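Blood and endothelial cells arise from shared mesodermal precursors, and 10 genes known from these precursors were followed here in Xenopus laevis animal caps: LMO2, TAL1, LYL1, KDR, FLI1, ERG, ETV2, APLNR, APLN and TEK. A gene entered by its symbol in the deposited table, with every gene model that carries it. The rule found 17 models of 8 symbols among 24364 models in all, and no model named ETV2 or APLN. All values come from 1 group, animal caps of embryos injected with xnr2 RNA at early cleavage (genotype exogenous xnr2 expression). Caps are the ectodermal roof of the embryo, and xnr2 encodes a Nodal ligand. Excision was at stage 10 and harvest at stage 14, the neurula, with 10 explants pooled for each of 2 libraries, numbered 1 and 3. No control caps were analysed here, so a level below is not a response to xnr2, and with 1 group no test between groups was possible. Whether the libraries stem from different clutches is not in the labels, and their spread (SD, n = 2) may be technical.

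In vertebrate embryos the factors ETV2, TAL1 and LMO2 act early in lateral and ventral mesoderm to set up blood and vessel precursors. FLI1 and ERG are ETS-family factors that maintain the endothelial programme. The receptors KDR (VEGFR2) and TEK (TIE2) respond to VEGF and angiopoietin on endothelial cells, and the apelin receptor APLNR is known both from migrating early mesoderm, in zebrafish, and from forming vessels.

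The caps held much RNA of LMO2 and APLNR and little of the other genes with a named model. ETV2 and APLN have no named model, so their levels are not known. The LMO2 and APLNR models took 99.4% and 99.3% of all member reads in libraries 1 and 3. The other 13 models together had 117 and 172 reads, in libraries of 25880104 and 29238297 exon reads. Of the 17 member models, 6 reached 1 CPM (counts per 1000000 exon reads) in both libraries, against 62.8% of all models. The 6 were both models each of LMO2 and APLNR, ERG on chromosome 2L and KDR. When all models of one symbol were summed, 4 of 8 symbols reached that level, against 73.1% of all symbols. Fewer than 10 reads in both libraries together were found for 10 member models, or 58.8%, against 22.8% of all models. The median level of the member models was 0.0557 CPM, below the 4.53 CPM of all models. It was 0.0773 CPM in library 1 alone and 0.0342 CPM in library 3 alone. Over symbols, with models summed, the median was 1.09 CPM for the 8 member symbols and 10.9 CPM for all symbols. In bulk RNA of whole caps, fewer cells of a type and less RNA per cell cannot be told apart.

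**Figure D1:**
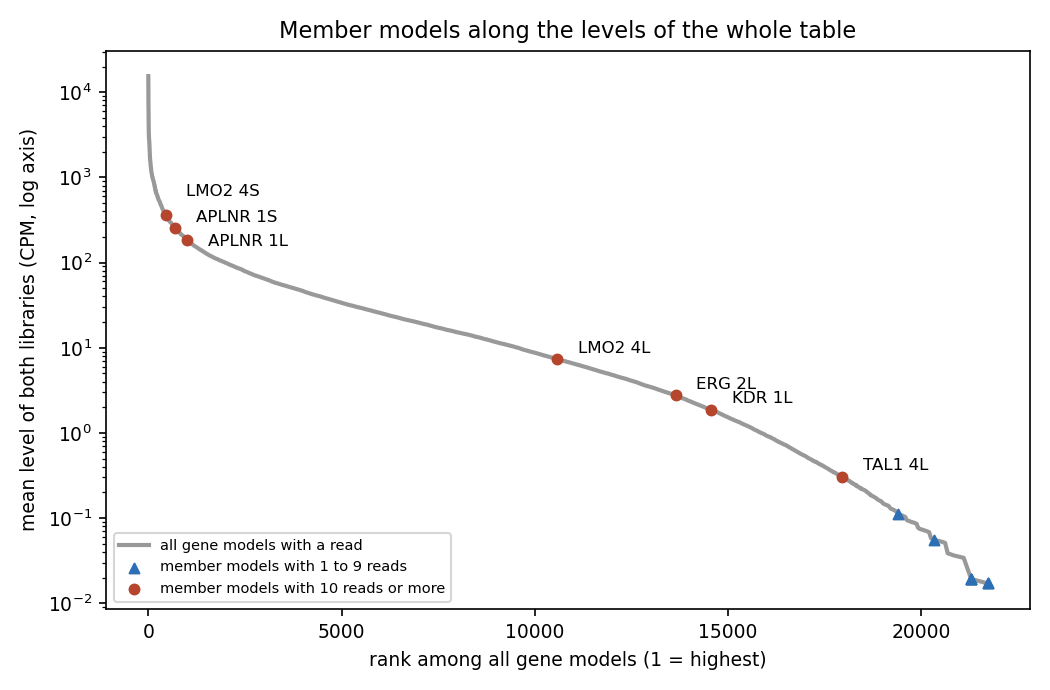
Mean level of both libraries in CPM (log axis) against the rank of each gene model, with the member models marked on the curve of all models that had a read. The 3 member models with 0 reads in both libraries are not drawn. LMO2 (4S) and both APLNR models stand at ranks of 1000 or higher up, LMO2 (4L), ERG and KDR in the middle of the curve, and the remaining member models at its lower end.

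LMO2 encodes a LIM-domain adaptor that binds no DNA itself, bridges TAL1 with GATA factors and also binds LDB1. Its L copy on chromosome 4L (10847283 to 10850549, minus strand, gene model build 9.1) had 180 reads in library 1 and 227 in library 3, or 6.96 and 7.76 CPM. Its S copy on 4S (12263881 to 12270004, plus strand) had 9329 and 10886 reads, or 360.5 and 372 CPM. The mean of the S copy, 366 ± 8.38 CPM, had rank 447 among all models. The libraries gave nearly the same level for either copy, and the copies did not overlap.

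The L model holds only 493 bases of exon against 1333 bases in the S model, so the copies were also compared per length. Per kilobase of exon the L model stood at 14.9 ± 1.16 CPM and the S model at 275 ± 6.29 CPM. Reads of the L transcript outside the 493 bases are not in this count, and how many there were was not tested. No other model overlapped either copy. The neighbours did not share the level of the S copy: SPI1, a factor of myeloid cells that lies 72556 bases away on 4S, had 0 reads in both libraries, and ABTB2, 13315 bases away, had 68.1 ± 4.04 CPM. On 4L the acetyltransferase gene NAT10 starts 4725 bases beyond the end of LMO2 and is read from the same strand. NAT10 had 314 ± 1.72 CPM, and CAPRIN1 on the other side of LMO2 had 214 ± 40.8 CPM.

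APLNR encodes a receptor coupled to G proteins that binds apelin and, in zebrafish, the early peptide Toddler. Its L copy (1L, 142841624 to 142843658) had 4883 reads in library 1 and 5321 in library 3, or 189 and 182 CPM. Its S copy (1S, 117333127 to 117335359) had 6288 and 7796 reads, or 243 and 267 CPM. In both libraries the S copy was the higher one. The L copy averaged 185 ± 4.73 CPM, at rank 1000, and the S copy 255 ± 16.7 CPM, at rank 691. Per kilobase of exon, the L copy stood at 92.1 ± 2.35 CPM and the S copy at 114 ± 7.51 CPM. With both copies added up, APLNR reached 440.1 ± 12.0 CPM and LMO2 374 ± 8.95 CPM. On one side of APLNR on either chromosome lies the zinc finger gene ZNF219, which had 4.89 ± 0.627 CPM on 1L and 5.59 ± 0.853 CPM on 1S.

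The table names no model APLN, the gene of the receptor's ligand. In RefSeq's annotation of X. laevis (assembly version 10.1), apln.L and apln.S each lie between vsig1 and ocrl, with psmd10 beyond vsig1. In the deposited table, the place before OCRL is held on both chromosomes by a model with no symbol. The one on 8L (30662901 to 30679276), between PSMD10 and OCRL, had 245 reads in library 1 and 393 in library 3, or 9.47 and 13.4 CPM. The one on 8S (58376656 to 58388787), between VSIG1 and OCRL, had 23 and 31 reads, or 0.889 and 1.06 CPM. Order along the chromosome does not show which gene an unnamed model is, and these values enter no count of members.

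Among the ETS factors, the members FLI1 and ERG were low. ERG on 2L (11358496 to 11393762) had 54 reads in library 1 and 100 in library 3, or 2.09 and 3.42 CPM, while ERG on 2S had 0 and 1 read. Almost all ERG reads thus lay on the L copy. ERG is flanked on both chromosomes by ETS2, a related factor, and by the potassium channel gene KCNJ15, which lies closer. ETS2 had 24.7 ± 3.85 CPM on 2L and 27.7 ± 3.15 CPM on 2S, and KCNJ15 had 13.9 ± 0.673 CPM on 2L and 1.81 ± 0.772 CPM on 2S. FLI1 has 4 models, a pair on each of 7L and 7S. The 4 had 2, 1, 0 and 1 reads in library 1 and 1, 0, 0 and 0 reads in library 3, given in the order of the chromosomes, so that FLI1 was at the edge of detection in both. For a model with 0 reads the floor used here is 3 reads per library, which is 0.116 CPM in library 1 and 0.103 CPM in library 3. The exact two-sided 95% Poisson interval of 0 reads reaches higher, to 0.143 and 0.126 CPM, and both cover counting error only.

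Each FLI1 model lies next to a model called ETS1, and these were well above FLI1. Beside the FLI1 models at 66371171 to 66423842 (7L) and 47401307 to 47453171 (7S), the ETS1 models had 9.70 and 8.55 CPM on 7L and 6.18 and 9.17 CPM on 7S in libraries 1 and 3. RefSeq places ets1 next to fli1 there as well. The other FLI1 models (7L, 122170163 to 122195810, and 7S, 87540151 to 87571510) have RBM42 as the next gene, which in RefSeq is the neighbour of fli1b. On the other side of fli1b RefSeq places etv2, followed by haus5 on 7L, and it lists ets1 among the older names of etv2.L. In the table that place holds the second model called ETS1 of each chromosome, followed by HAUS5 on 7L. It had 160 reads in library 1 and 99 in library 3 on 7L (122137610 to 122143414), or 6.18 and 3.39 CPM. On 7S (87506990 to 87513080) it had 83 and 67 reads, or 3.21 and 2.29 CPM. The ratio of library 1 over library 3 was 1.83 on 7L (95% exact binomial interval 1.41 to 2.37) and 1.40 on 7S (1.00 to 1.96). The table itself calls them ETS1, and position alone does not show that they are ETV2, so the level of ETV2, the earliest of these ETS factors in blood and vessel formation, is not given.

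The bHLH factors were hardly detected. TAL1, which with an E protein binds E-box DNA and starts blood formation, had 15 reads in library 1 and 1 in library 3 from its L copy (4L, 83718398 to 83725118), or 0.580 and 0.0342 CPM. Its S copy (4S, 67729930 to 67741742) had 0 reads in both. TAL1 reads thus came mostly from 1 library. LYL1, a close relative that can stand in for TAL1 in mouse blood cells, had 0 and 1 read from its model on Scaffold20 and 0 and 0 from that on Scaffold81. RefSeq names no lyl1 among its protein-coding genes, so both models rest on the symbol of the deposited table alone.

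The endothelial receptor kinases were also low. KDR has a single model, on 1L (32819421 to 32842997, 5642 bases of exon). It had 39 reads in library 1 and 66 in library 3, or 1.51 and 2.26 CPM, with exact Poisson intervals of 1.07 to 2.06 and 1.75 to 2.87 CPM that overlap. RefSeq places a kdr.S between kit and srd5a3 on 1S, where the table has no model between KIT and SRD5A3, so S reads of KDR are not in this value. RefSeq names no kdr.L among its protein-coding genes. The 1L model thus rests on the symbol of the deposited table and its place between KIT and SRD5A3. KIT and PDGFRA, receptor kinases of the same gene cluster, had 3.20 ± 0.661 and 43.2 ± 10.4 CPM on 1L. TEK had 1 read in library 1 and 0 in library 3 on 1L, and 4 and 2 reads on 1S. Its L model overlaps PLAA, a model of the other strand with 231 and 370 reads, and the library kit does not mark strand.

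**Figure D2:**
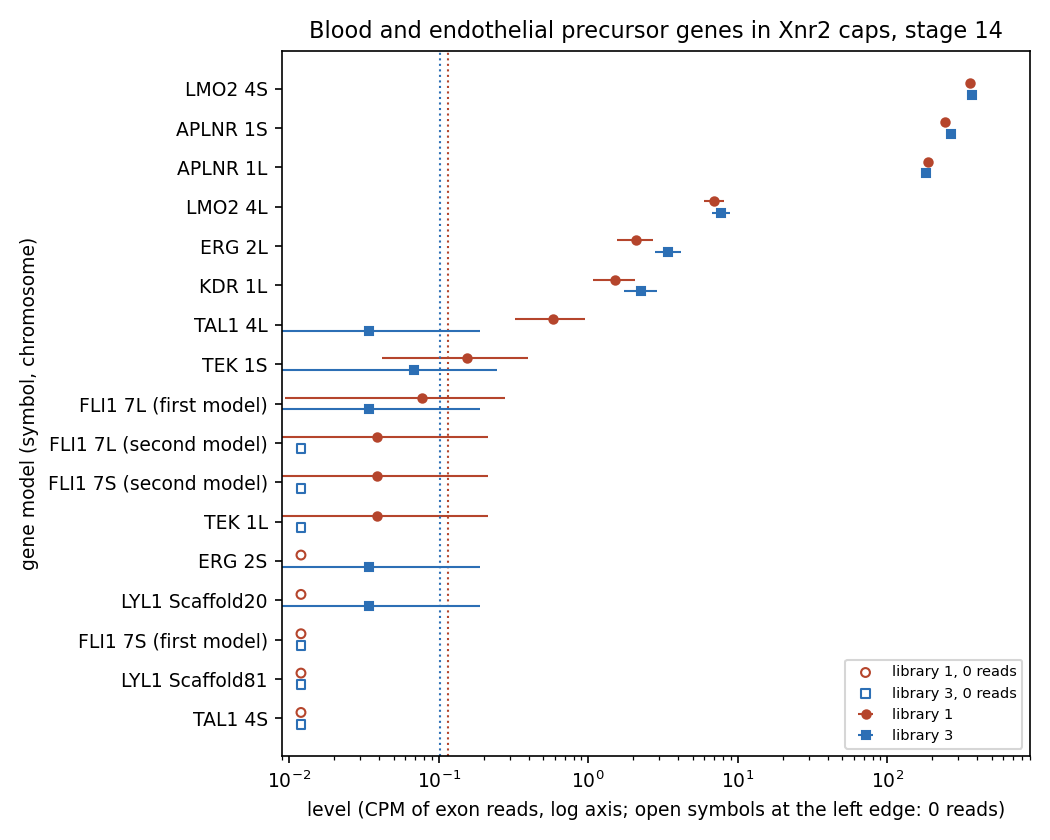
Level of each of the 17 member models in library 1 (circles) and library 3 (squares) in CPM on a log axis, with exact 95% Poisson intervals that cover counting error only. Open symbols at the left edge are models with 0 reads, and the dotted lines mark 3 reads per library (0.116 and 0.103 CPM).

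Ordered by level per kilobase of exon, LMO2 (4S) came first at 275 CPM, ahead of APLNR (1S) at 114 CPM, APLNR (1L) at 92.1 CPM and LMO2 (4L) at 14.9 CPM. Each of these steps was larger than the range of the libraries. ERG (2L) followed at 1.22 ± 0.417 CPM per kilobase and KDR at 0.334 ± 0.0940 CPM per kilobase. In each library ERG was higher than KDR on this scale. TAL1 (4L) at 0.0945 ± 0.119 and TEK (1S) at 0.0273 ± 0.0149 CPM per kilobase did not differ beyond their spread. Below them, single reads decided the order.

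X. laevis carries a pair of subgenomes, L and S, which keep many genes as an L and an S copy. Of the members, 5 symbols have exactly 1 model on each of a pair of matching chromosomes, and 2 of these pairs, LMO2 and APLNR, had at least 10 reads per copy. LMO2 was the only one of the 2 in which the copies differed by 2-fold or more per exon length in both libraries, a difference found in 46.5% of the 4425 pairs of the table and with the S copy higher in 19.2%. The L over S ratio of LMO2 was 0.0522 in library 1 (0.0448 to 0.0605) and 0.0564 in library 3 (0.0492 to 0.0643). The S copy was thus 19.2-fold and 17.7-fold higher per exon length, and 51.8-fold and 48.0-fold higher in reads. Of all pairs, 2.28% had an L over S ratio as low as that of LMO2 or lower. The shape of the LMO2 L model, 493 bases, bears on this value as stated above.

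The APLNR copies were close. Their L over S ratio per exon length was 0.860 in library 1 (0.829 to 0.893) and 0.756 in library 3 (0.730 to 0.783). On the log2 scale the mean ratio of APLNR was -0.31 and the median of all pairs 0.20. The intervals of the libraries do not overlap, so that the share of the S copy differed between them by more than counting error. ERG ran the other way from LMO2, with 54 reads on L against 0 on S in library 1. With the floor of 3 reads set for S, L was at least 17.2-fold higher per exon length, and the exact 95% interval of the ratio starts lower, at 13.5. In library 3 ERG had 100 reads on L against 1 on S, a ratio of 95.7 (16.8 to 3818). Among its protein-coding genes RefSeq names erg.L but no erg.S, so the S side rests on the symbol of the deposited table alone. The pairs of TAL1 and TEK had too few reads to place. Reads shared by near-identical copies may have been split or lost, and the sources used here do not give how such reads were handled.

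**Figure D3:**
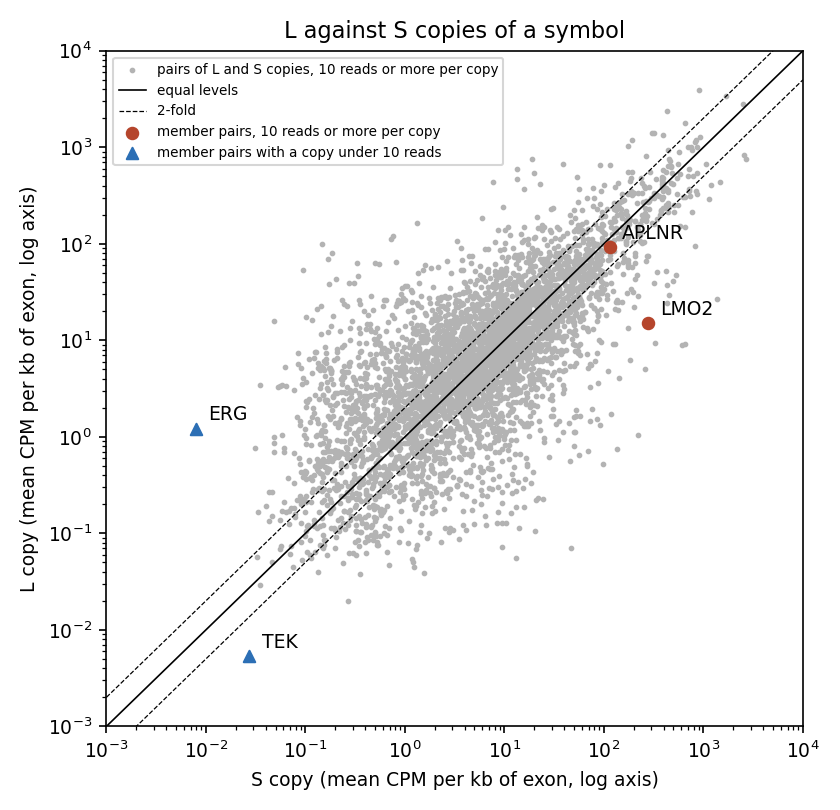
Level of the L copy against that of the S copy, both as mean CPM per kilobase of exon on log axes, for symbols with 1 model on each of a matching pair of chromosomes. APLNR lies near the line of equal levels, LMO2 far on the side of the S copy and ERG on the side of the L copy, and TAL1, whose S copy had 0 reads, cannot be drawn.

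Levels of the same group were next set side by side between the pools of explants. This compares 2 libraries of 1 group, with no replicate check and no p-value. Of the 7 member models with at least 10 reads, 2 differed by 1.5-fold or more, against 24% of all models with that many reads. Both, ERG and TAL1, had fewer than 200 reads, as had KDR, which fell just short of 1.5-fold. Among all models with 10 or more but fewer than 200 reads, 42.4% differed by 1.5-fold or more. The 4 models of LMO2 and APLNR had log2 ratios of library 1 over library 3 from -0.16 to 0.05, where the median of all models was -0.05. Their levels were thus nearly equal in the libraries.

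ERG (2L) was the one member model past 1.5-fold that was lower in library 1, as were 13% of all models with at least 10 reads. Its ratio of library 1 over library 3 was 0.610 (95% exact binomial interval 0.430 to 0.858). KDR, at 0.668 (0.437 to 1.01), stayed just inside, in the same direction and with an interval that overlaps that of ERG. TAL1 (4L) was the one past 1.5-fold that was higher in library 1, as were 11% of all models with at least 10 reads. With 15 reads against 1 read its ratio was 16.9 (2.61 to 713). The ERG call was lost with a pseudocount of 1 CPM and the TAL1 call with a minimum of 100 reads. Exon length moved with the ratio over the table: the median log2 ratio was 0.11 in the class of 172 to 1434 bases, which holds LMO2, and -0.20 in the class of 4035 to 20100 bases, which holds KDR. In the classes of ERG (2063 to 2831 bases) and TAL1 (2832 to 4034 bases) it was -0.03 and -0.12, against -0.69 for ERG and 2.34 for TAL1.

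Markers of other cell types also differed between the libraries. The 24 models of 9 epidermis markers summed to 389 CPM in library 1 and 105 CPM in library 3, and past 1.5-fold, 16 of the 21 models with 10 reads stood higher in library 1 and 1 stood lower. The 10 models of 5 notochord markers summed to 492 and 891 CPM, and past 1.5-fold, 7 of 10 stood lower in library 1 and 0 stood higher. The 17 models of 8 muscle markers summed to 22169 and 21648 CPM, with 1 of 15 higher in library 1 and 2 lower. Over all models with at least 10 reads, 11% stood higher in library 1 past 1.5-fold and 13% lower. Endothelial genes did not have a common level. CDH5, which encodes VE-cadherin, had 2 reads in library 1 and 1 read in library 3 from its L copy and 0 from its S copy. FLT1, which encodes another VEGF receptor, had 6.24 ± 2.49 CPM from its model on 2L. Its models on 2S and 8L had 0.595 ± 0.513 and 0.148 ± 0.0641 CPM. CDH5 and FLT1 were chosen with their values known. The part of the epidermis and notochord differences in those of TAL1 and ERG was not tested.

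**Figure D4:**
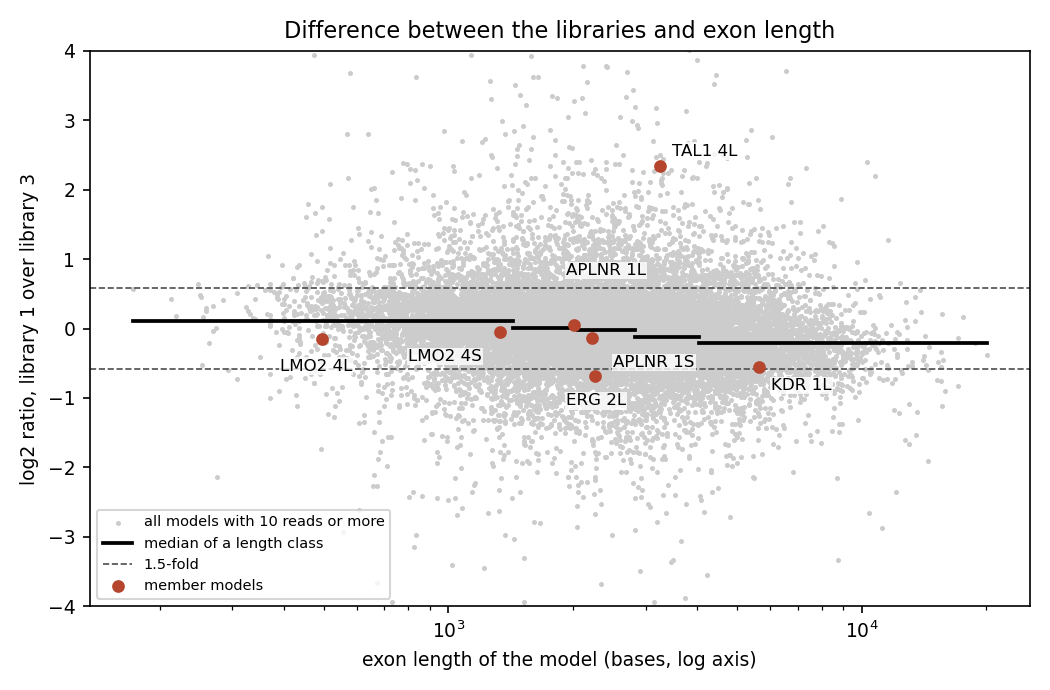
Log2 ratio of library 1 over library 3 against exon length (log axis) for all models with at least 10 reads, with the median of each of 5 length classes (bars) and the 7 member models marked. LMO2 and APLNR lie near 0, ERG and KDR near the lower 1.5-fold line and TAL1 far above the upper one; 37 other models lie outside the plotted range.

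Levels of genes that work with LMO2 and TAL1 ran from high to low, and bulk RNA does not show whether they share cells with LMO2. The list used here also holds LMO1, LMO4 and TAL2, relatives of LMO2 and TAL1, so its counts are not of partners alone. Of its 23 models of 10 genes, 17 reached 1 CPM in both libraries, or 73.9% against 62.8% of all models. The median of the list was 8.64 CPM. Of its 18 models with 10 reads, 2 stood higher in library 1 by 1.5-fold or more and 1 stood lower. The shares of all models with that many reads were 11% and 13%. The E protein gene TCF3 led with 552 ± 31.9 CPM (1S) and 227 ± 13.9 CPM (1L). LDB1, the partner that LMO2 binds directly, had 146 ± 2.22 CPM (7S) and 44.8 ± 2.22 CPM (7L). The further E protein gene TCF12 had 117 ± 16.9 CPM (3S) and SSBP3, which binds and stabilises LDB1, had 95.1 ± 1.37 CPM (4S). TCF4, SSBP2 and LDB2 were picked after their values were seen and stood lower. TCF4 had 1.39 ± 0.0595 CPM (1S) and 1.16 ± 0.106 CPM (1L). SSBP2 had 8.64 ± 1.67 CPM (1S) and 1.52 ± 0.459 CPM (1L), and LDB2 had 0.0557 ± 0.0305 CPM (1L). Per kilobase of exon, LMO2 (4S) at 275 CPM stood above TCF3 (1S) at 213 ± 12.3 CPM and LDB1 (7S) at 65.2 ± 0.991 CPM. TAL2, a relative of TAL1, had 0 reads.

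Other blood transcription factors were mostly low. Of 39 models of 22 genes, 15 reached 1 CPM in both libraries, or 38.5% against 62.8% of all models. The median was 0.294 CPM, with 10 models at 0 reads. Of the 21 models with 10 reads, 6 stood higher in library 1 by 1.5-fold or more and 5 stood lower. Over all models with that many reads, 11% stood higher and 13% lower. The leading genes are not restricted to blood: the homeobox genes MEIS1, at 73.4 ± 16.7 CPM (5L), and HOXA9, at 46.0 ± 0.604 CPM (6L), then CBFB, which encodes the partner of RUNX proteins, at 35.8 ± 0.673 CPM (4S), and ETV6 at 21.8 ± 2.51 CPM. The erythroid factors GATA1 and GFI1B and the homeobox factor HHEX had 0 reads in all their models. Picked after their values were seen, GATA2 had 27.9 and 12.9 CPM in libraries 1 and 3 on 4S and 17.4 and 6.12 CPM on 4L, and RUNX1, needed for definitive blood stem cells, had 8 and 6 reads on 2L and 2 and 2 on 2S.

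Of 37 models of genes of differentiated blood cells, 7 reached 1 CPM in both libraries, or 18.9% against 62.8% of all models. The median over the list was 0.105 CPM. They were led by a model called HBZ, a globin, at 18.9 ± 3.99 CPM (9_10L), by KIT at 18.5 ± 5.52 CPM (1S), by CORO1A at 18.1 and 2.91 CPM in libraries 1 and 3 and by the anion exchanger SLC4A1 at 10.4 ± 0.204 CPM (9_10L). The human symbol does not tell which Xenopus globin the HBZ model is. ALAS2, the heme synthesis enzyme of red cells, and HBD had 0 reads. Of the 17 models with 10 reads, 6 stood higher in library 1 by 1.5-fold or more and 2 stood lower. Over all models with that many reads, 11% stood higher and 13% lower.

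Endothelial genes other than the members had 13 of 41 models at 1 CPM in both libraries, or 31.7% against 62.8% of all models. Their median was 0.366 CPM. SOX17 led with 78.9 ± 19.0 CPM (6S) and 62.2 ± 3.42 CPM (6L), and it is also an endoderm factor. The guidance receptor gene PLXND1 had 21.3 ± 6.30 CPM (4L), a model called VWF had 13.5 ± 5.33 CPM on Scaffold42 and the sphingolipid receptor gene S1PR1 had 7.06 ± 1.96 CPM (3L). RAMP2 had 0 reads. Of the 25 models with 10 reads, 0 stood higher in library 1 by 1.5-fold or more and 6 stood lower, against 11% and 13% of all models with that many reads. The median exon length of the 25 was 3271 bases.

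Vascular ligands and co-receptors had 12 of 27 models at 1 CPM in both libraries, or 44.4% against 62.8% of all models. Their median was 0.973 CPM. Of the 20 models with 10 reads, 3 stood higher in library 1 by 1.5-fold or more and 7 stood lower. The shares of all models with that many reads were 11% and 13%. The receptor gene NOTCH1 had 157 ± 52.1 CPM (8L) and 129 ± 39.2 CPM (8S), the VEGF co-receptor genes NRP2 and NRP1 had 117 ± 13.5 CPM (9_10S) and 14.4 ± 9.15 CPM (6L), and the growth factor gene PDGFA had 10.6 and 5.37 CPM in libraries 1 and 3 (9_10L). VEGFA, the ligand of KDR, was picked after its values were seen and had 7.01 ± 1.55 CPM (4L), 5.10 ± 0.818 CPM (5L) and 0.891 ± 0.0511 CPM (5S). Per kilobase of exon, VEGFA stood at 6.52 ± 1.44 CPM (4L), 3.89 ± 0.623 CPM (5L) and 0.838 ± 0.0481 CPM (5S). Each was above KDR at 0.334 CPM, a value without S reads of KDR.

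Most ETS factors outside the members had higher levels than FLI1 and ERG. Of 32 models of 16 genes, 23 reached 1 CPM in both libraries, or 71.9% against 62.8% of all models, with a median of 6.88 CPM. The 23 include all 4 models called ETS1, also those in the place of etv2. Of the 26 models with 10 reads, 3 stood higher in library 1 by 1.5-fold or more and 3 stood lower. The shares of all models with that many reads were 11% and 13%. ETV1 led with 251 ± 85.1 CPM (6S) and 126 ± 22.3 CPM (6L), followed by GABPA at 58.4 ± 1.03 CPM (2L), ELF2 at 39.5 ± 0.909 CPM (1S) and the repressor gene ERF at 36.5 ± 9.40 CPM (7S). Per kilobase of exon, ETV1 (6S) stood at 48.7 ± 16.5 CPM and ERG (2L) at 1.22 ± 0.417 CPM. EHF and FEV had 0 reads.

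**Figure D5:**
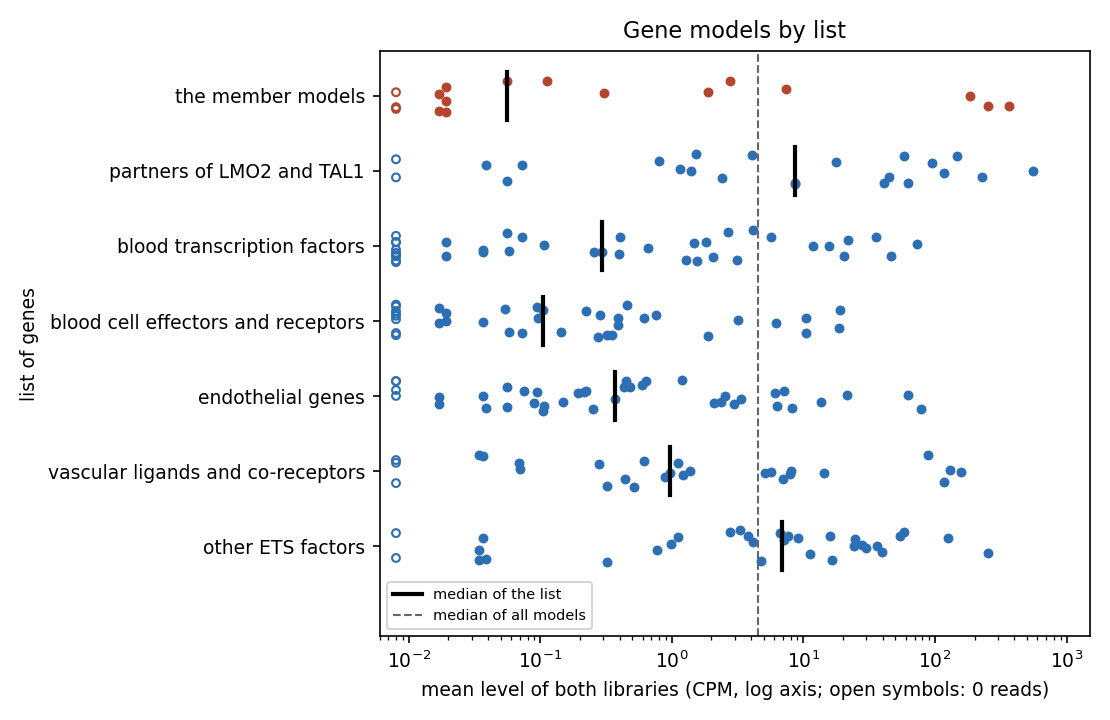
Mean level of both libraries in CPM (log axis) for the 17 member models and for the models of 6 lists of related genes, with list medians (bars) and the median of all models (dashed line, 4.53 CPM). The medians of the list of partners of LMO2 and TAL1, which includes relatives of both, and of the other ETS factors lie right of the dashed line. Those of the members and of the blood and vessel lists lie left of it.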

How the data were processed

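RNA of 2 libraries of 1 group was analysed. Per the submitters' processing notes, FastQC, STAR 2.4.0k, HOMER and edgeR were used. Per the file headers, HOMER counted exon reads per model on Mayball gene models of build 9.1 and rescaled them (simple normalization). The deposited signal is thus a read count times 1 constant per library. Of 4 libraries in the header, 2 were not analysed here, and 0 columns of another sample were used. Whole reads were recovered by dividing by the step of each library (0.808 and 0.715), and 100% of the nonzero results lay within 0.05 of a whole number. They sum to 25880104 and 29238297 reads, 69.5% and 68.0% of the aligned tags. With 1 group, no count test could be fitted, so the plan held descriptions only.

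Levels are CPM on recovered exon reads, with exact Poisson intervals. Ratios of reads have exact binomial (Clopper-Pearson) 95% intervals, and both cover counting error only. Log2 ratios of library 1 over 3 used a pseudocount of 0.1 CPM and models with at least 10 reads. Copy ratios had 0.5 reads added for the fold calls, the mean log2 ratios and the share of pairs as low as LMO2. The copy ratios printed with intervals had none added. Calls were 1 CPM in both libraries, 1.5-fold between libraries and 2-fold between copies. Alternatives were other levels, folds, read minimums and pseudocounts, TMM (edgeR 4.0.16), DESeq2 1.42.0 size factors, the deposited scaling, aligned tags, and each library alone. Scripts ran in Python 3.11.15 with scipy 1.17.1 and were tested on simulated data. Of each list, the 4 symbols with the highest model and those at 0 reads are named. Symbols come from the table, and neighbours also from RefSeq (assembly version 10.1), of which no coordinates were used. No sequence is shown. The members and lists were chosen with earlier results of these data known.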

Additional observations from a re-analysis of the deposited data

How the results depend on the processing

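The count of 6 member models at 1 CPM in both libraries ran from 4 to 6 over all alternatives, with 4 at a level of 5 CPM and 4 symbols where models were added up. It was 6 in each library alone. The count of member models past 1.5-fold between the libraries (2) was 1 with a minimum of 100 reads, where TAL1 is not counted, 1 with a pseudocount of 1 CPM and 1 at a fold of 2. It was 3 with no minimum and 2 under each scaling. The count of member pairs past 2-fold (1) was 4 with no minimum of reads per copy, where pairs with single reads enter, and 1 in each library alone. The median level of 0.0557 CPM was 1.09 CPM after summing over each symbol and 0.0342 to 0.0773 CPM in single libraries. TMM and size factors moved member levels by -1.95% to 1.99%. Scaling to aligned tags, added after the data were seen, multiplies each library by 1 constant and so lowered every level with reads. The fall was more than 1 SD for 5 of 17 levels. Which levels pass 1 SD depends on the spread of the libraries, so the rest are not shown to be more stable. No paired analysis was possible because the libraries form 1 group. Depth limits the 10 models under 10 reads, whose order cannot be read and whose copy ratios have wide or open intervals.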

Other observations

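Genes of lateral plate and heart mesoderm, from which blood and vessels also arise, had a median of 0.797 CPM. Of their 37 models, 14 reached 1 CPM in both libraries, or 37.8% against 62.8% of all models. They were led by models called MESP1, at 199 ± 6.04 CPM (3S) and 141 ± 9.40 CPM (3L), and MESP2, at 104 ± 1.12 CPM (3S), names that do not tell which Xenopus mesp gene each is. The ligand gene BMP4 had 40.9 ± 2.78 CPM (8S) and GATA6, which is also on the endoderm list, had 15.7 ± 0.380 CPM (6L). Picked after their values were seen, HAND1, HAND2, TBX5, TBX20 and TCF21 stayed below 1 CPM in every model. The highest of these models was HAND2 on 1L, at 0.257 ± 0.0735 CPM. Other genes of the list, picked in the same way, did reach 1 CPM in both libraries. OSR1 (5L) had 16.5 and 3.56 CPM in libraries 1 and 3, and ISL1 (1S) had 5.56 and 2.33 CPM. GATA5 (9_10S) had 3.40 and 1.98 CPM, and PRRX1 (4L) had 1.39 and 2.22 CPM. The leading genes thus do not stand for the whole list. Of the 22 models of the list with 10 reads, 11 stood higher in library 1 by 1.5-fold or more and 1 stood lower. Over all models with that many reads, 11% stood higher and 13% lower. Of the remaining marker lists, endoderm had 8 of 19 models (42.1%) at 1 CPM and a sum of 1093 and 1116 CPM in libraries 1 and 3. Most of that sum, 892 and 948 CPM, came from a single model, A2M on 7S. The neural list had 5 of 13 (38.5%) and sums of 21.0 and 25.7 CPM.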
